A study of Mus musculus with 6 samples.

Results

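Respiratory complex I is built from nuclear genes whose mouse symbols begin with Nduf, and 41 of them were followed here in whole pancreas. They were found by name in the deposited tables, as every gene of the Ndufa, Ndufb, Ndufc, Ndufs, Ndufv and Ndufaf series with a number, and make up 41 of 23099 gene symbols. Of these 41, 7 encode core subunits, 28 encode accessory subunits and 4 encode assembly factors. The other 2, Ndufa4 and Ndufa4l2, carry the name without being counted as complex I subunits: Ndufa4 is a subunit of cytochrome c oxidase, and Ndufa4l2 is its hypoxia-inducible relative. Ndufb1 and the mitochondrially encoded subunits were not analysed here.

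Polyadenylated RNA was sequenced with a strand-preserving kit from the pancreas of mice aged 8 weeks, giving 3 libraries of wild-type mice (WT) and 3 of Ela1-Myc mice. Ela1-Myc mice carry Myc, which encodes a growth-promoting transcription factor, under the elastase 1 promoter, which is active in acinar cells, the makers of digestive enzymes, so the transgene is driven in 1 of the cell types of the organ. The single comparison is Ela1-Myc against WT at this age, in a series that concerns the fall of Myc as acinar cells mature. No label ties a library to an animal of its own, so the p-values weigh differences only against the spread among these libraries, which may be technical.

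Complex I is the first and largest enzyme of the mitochondrial respiratory chain. Its matrix arm takes electrons from NADH through flavin and iron-sulfur clusters to ubiquinone, and its membrane arm pumps protons, which ATP synthase then uses to make ATP. The core subunits do the catalysis and are shared with bacteria, the accessory subunits surround and stabilise them, and assembly factors join the modules and are not part of the finished enzyme. Acinar cells hold many mitochondria, since the synthesis and secretion of digestive enzymes costs much ATP, and Myc is known to raise the expression of many genes of mitochondrial biogenesis in other settings.

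The values are the authors' adjusted FPKM (reads per gene relative to transcript length and library size), divided throughout by 100000. FPKM is per length, so levels are set side by side between genes, on the assumption, not tested, that the undescribed adjustment kept this. No read counts were used, and library depth is unknown. A listed 0 is no evidence of absence: Gapdh, a glycolytic gene that every cell uses, was listed at 0 in WT replicates 1 and 3. Among 8802 tested genes, between 592 and 1426 were at 0 in the WT libraries and between 0 and 29 in the Ela1-Myc libraries. Digestive enzyme genes made up 91.1% to 91.3% of the summed values in WT and 61.0% to 73.4% in Ela1-Myc. Myc was at 52.0, 34.4 and 34.2 in the Ela1-Myc libraries, at 4.10 for WT replicate 2, with a listed 0 for the other WT libraries. RNA integrity numbers were 7.1 to 7.3 in WT and 7.2 to 8.8 in Ela1-Myc.

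Markers of other pancreatic cell types differed between the groups on the deposited scale to differing degrees. All 9 acinar markers were above 0 in every library of this tissue, which the labels call pancreas, and their summed level was 269768 to 816383 in WT and 163508 to 369367 in Ela1-Myc. The 8 macrophage markers summed to 0.711 to 49.4 in WT, with Cd68 at 0 in all 3 libraries, and to 394 to 1138 in Ela1-Myc. The 7 stellate and fibroblast markers found summed to 46.8 to 107.5 in WT and 358 to 540 in Ela1-Myc. The 7 islet markers summed to 0 to 2476 in WT, where replicate 1 listed all of them at 0, and to 2443 to 3358 in Ela1-Myc. The 8 lymphocyte markers summed to 0 to 33.4 in WT and 15.9 to 134.7 in Ela1-Myc, the 7 duct markers to 73.2 to 205.6 and 186.5 to 344.1, the 6 endothelial markers to 9.62 to 14.0 and 23.1 to 30.2, and the 6 adipocyte markers to 15.04 to 248.3 and 156.5 to 549.8. The 5 muscle markers summed to 0.201 to 0.464 in WT, with Ckm and Acta1 at 0 in all 3 libraries, and to 3.08 to 11.5 in Ela1-Myc. After median-of-ratios scaling, explained with the gene tests below, 6 of 8 macrophage, 3 of 7 stellate and fibroblast, 2 of 7 islet and 1 of 7 tested lymphocyte markers passed as higher, 1 of 6 tested duct markers as higher and 1 as lower, 8 of 9 acinar markers as lower, and none of the 6 endothelial, 5 tested adipocyte and 1 tested muscle markers passed. Other cell types also express complex I, and their part in the results below was not tested. In bulk tissue, fewer cells of a type and less RNA per cell cannot be told apart.

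In sum, complex I transcripts had larger deposited values in Ela1-Myc, with a share of the RNA outside the digestive enzymes that lay within the WT range. The 35 subunits summed to 523, 1762 and 799 in WT replicates 1 to 3 and to 2257, 1954 and 1824 in Ela1-Myc replicates 1 to 3. WT replicate 2 stood far above the other WT libraries and close to the lowest Ela1-Myc library, and the groups did not overlap. As a share of all values outside the digestive enzyme list, the subunits made up 0.875%, 1.02% and 0.777% in WT and 0.779%, 0.795% and 0.791% in Ela1-Myc. Leaving out 4463 rows that share a single value in each WT library and are at 0 in Ela1-Myc, a choice made after seeing the data, gave 0.875%, 1.02% and 0.777% in WT. The Ela1-Myc libraries lay inside the WT range in this measure, which a factor multiplying all values of a library would not change. Whether the undescribed adjustment did more than multiply was not tested. The means were 0.889% ± 0.121 (SD, n = 3) for WT, against 0.789% ± 0.00824 (SD, n = 3) for Ela1-Myc. Core subunits took 11.6% ± 1.27 (SD, n = 3) of the summed subunits in WT, against 12.8% ± 0.232 (SD, n = 3) in Ela1-Myc.

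**Figure D1:**
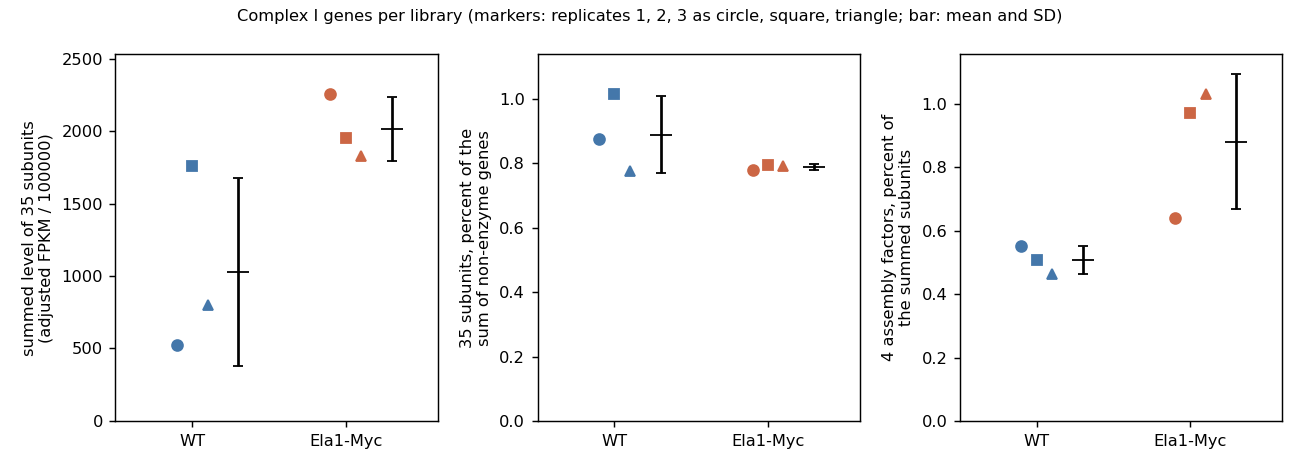
The 3 panels plot, per library, the summed level of 35 complex I subunits (adjusted FPKM / 100000), that sum as a percent of all values outside the digestive enzymes, and the 4 assembly factors as a percent of the summed subunits; points are libraries and bars give the mean and SD of 3. The sum is higher in all 3 Ela1-Myc libraries (1824 to 2257 against 523 to 1762), its share is not, and the assembly factors' share is higher in all 3 (0.639% to 1.03% against 0.465% to 0.551%), which without Ndufaf2 overlaps.

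Because most genes had larger deposited values in Ela1-Myc, each gene was tested on that scale and again after median-of-ratios scaling, which divides each library by the median ratio of its genes to their mean. On the deposited scale 17 of the 41 genes passed an adjusted p of 0.05, 16 of them higher and 1 lower, where 70.5% of all tested genes passed, 70.2% higher and 0.239% lower. The 35 subunits contributed 12 higher genes and 1 lower, and the 4 assembly factors contributed 3 higher genes. The share of complex I genes that passed was thus below that of the tested genes, while the median log2 difference was alike: 1.34 over the subunits, 1.06 over the assembly factors and 1.22 over all tested genes. The count depended on WT replicate 2, since 38 genes passed without it (37 higher, 1 lower). It was 9 without WT replicate 1, 10 without WT replicate 3, and 9, 9 and 7 without Ela1-Myc replicates 1, 2 and 3. Over both scales, the count of all tested genes that passed also moved widely with a library left out, as given at the end. These counts are thus not read as particular to complex I.

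After median-of-ratios scaling 3 of the 41 genes passed: Ndufaf2 was higher, and Ndufs5 and Ndufa1 were lower. Of all tested genes 24.1% passed, 17.0% higher and 7.08% lower. The median log2 difference was -0.16 over the subunits and 0.30 over the assembly factors, against 0.22 over all tested genes, so relative to the median gene the subunits lay 0.38 lower and the assembly factors 0.08 higher. After quantile normalization these offsets were -0.09 and -0.06, and on the deposited scale 0.12 and -0.16, so no order of the subunits and the assembly factors held on all scales. Without WT replicate 2 the scaled count was 9 (8 higher, 1 lower), and it was 2, 1, 3, 1 and 1 without WT replicates 1 and 3 and Ela1-Myc replicates 1, 2 and 3. The share of all tested genes is not set beside these counts, so they are not read as particular to complex I. Quantile normalization passed 9 genes, Ndufaf2 higher and 8 lower, where 31.3% of all tested genes passed, 11.3% higher and 20.0% lower. The 8 lower genes were Ndufs5, Ndufa1, Ndufa6, Ndufa11, Ndufaf3, Ndufb8, Ndufc1 and Ndufs7. With the digestive enzymes left out and the totals made equal, Ndufaf2, Ndufs5 and Ndufa1 passed in the same directions as after median-of-ratios scaling, where 23.8% of genes passed, 19.4% higher and 4.44% lower. With only genes above 0 in all 6 libraries, 19 of the 39 complex I genes left passed on the deposited scale, 18 higher and 1 lower (69.2% of the genes left, 68.7% higher and 0.429% lower), and after median-of-ratios scaling 2 passed, both lower (19.0%, 9.21% higher and 9.78% lower).

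**Figure D2:**
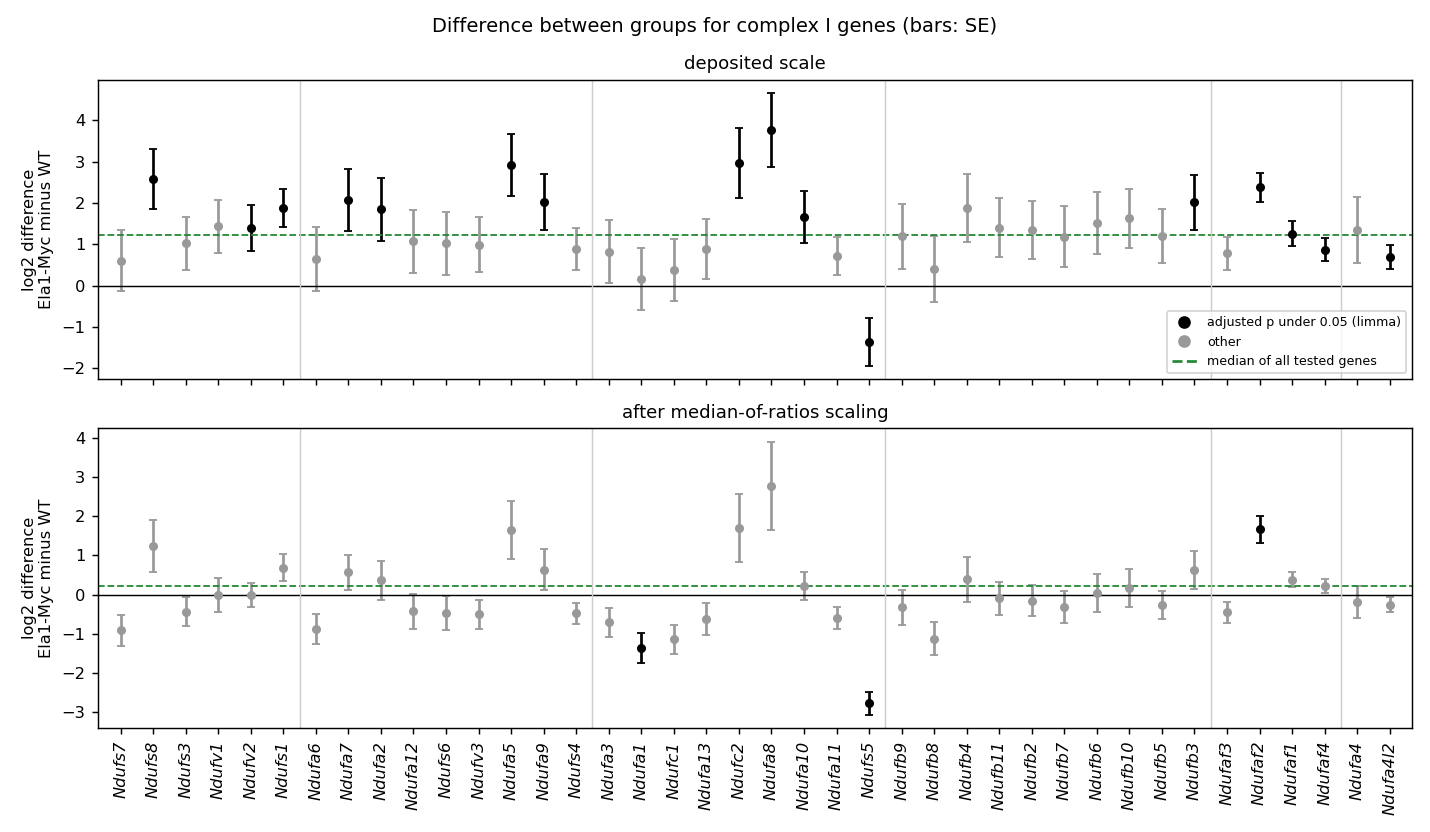
Each point is a gene's log2 difference, Ela1-Myc minus WT, on log2(value + 1), with its SE; the upper panel is the deposited scale and the lower panel the median-of-ratios scale, black points passed limma at an adjusted p of 0.05 and the dashed line is the median of all tested genes (1.22 and 0.22). Ndufs5 is the lowest gene in both panels, at -1.37 and -2.77, and Ndufaf2 passes as higher in both.

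The core subunits of the matrix arm are given by whether they passed on the deposited scale. That cut parts genes with like values: Ndufv2 passed with a log2 difference of 1.39, and Ndufv1 did not with 1.43. Ndufs1, which carries several iron-sulfur clusters of the NADH-oxidising module, was at 1.09, 5.13 and 1.34 across WT, against 9.17, 11.2 and 10.9 across Ela1-Myc. The groups did not overlap, with a log2 difference of 1.88 (SE 0.46, adjusted p = 0.00288), and after median-of-ratios scaling the difference was 0.69 (SE 0.33, adjusted p = 0.168). Ndufs8, an iron-sulfur subunit near the ubiquinone site, was at 2.61, 21.3 and 1.87 across WT, against 36.9, 39.2 and 31.5 across Ela1-Myc. WT replicate 2 again stood above the other WT libraries and below every Ela1-Myc library. Its log2 difference was 2.58 (SE 0.72, adjusted p = 0.00641) on the deposited scale and 1.23 (SE 0.67, adjusted p = 0.208) after scaling.

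Ndufv2, an iron-sulfur subunit beside the flavin site, was at 4.38, 14.6 and 6.23 across WT, against 19.9, 21.5 and 22.3 across Ela1-Myc, 1.39 higher on the log2 scale (SE 0.57, adjusted p = 0.0399). After scaling its groups overlapped and the difference was -0.01 (SE 0.30). The deposited-scale call of Ndufv2 was lost when any library other than WT replicate 2 was left out.

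The core subunits Ndufv1, Ndufs3 and Ndufs7 did not pass on the deposited or the median-of-ratios scale. After quantile normalization Ndufs7 passed as lower (-1.004, adjusted p = 0.0324). Ndufv1, which binds NADH and the flavin, was at 7.04, 24.2 and 6.66 across WT, against 37.2, 28.2 and 26.3 across Ela1-Myc (log2 difference 1.43, SE 0.64, adjusted p = 0.0578; -0.01 after scaling). Ndufs3 was at 9.48, 22.9 and 12.1 across WT, against 40.5, 17.2 and 35.5 across Ela1-Myc (1.02, SE 0.64, adjusted p = 0.157). Its groups overlapped, because Ela1-Myc replicate 2 lay below WT replicate 2. Ndufs7, which holds the last iron-sulfur cluster before ubiquinone, had the highest level of the core genes: 34.7, 79.6 and 41.8 in WT and 90.2, 74.6 and 61.2 in Ela1-Myc. The log2 difference was 0.60 (SE 0.73, adjusted p = 0.458) on the deposited scale and -0.91 (SE 0.39, adjusted p = 0.129) after scaling, where all 3 Ela1-Myc values (29.7 to 56.9) lay below all WT values (71.1 to 92.6).

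**Figure D3:**
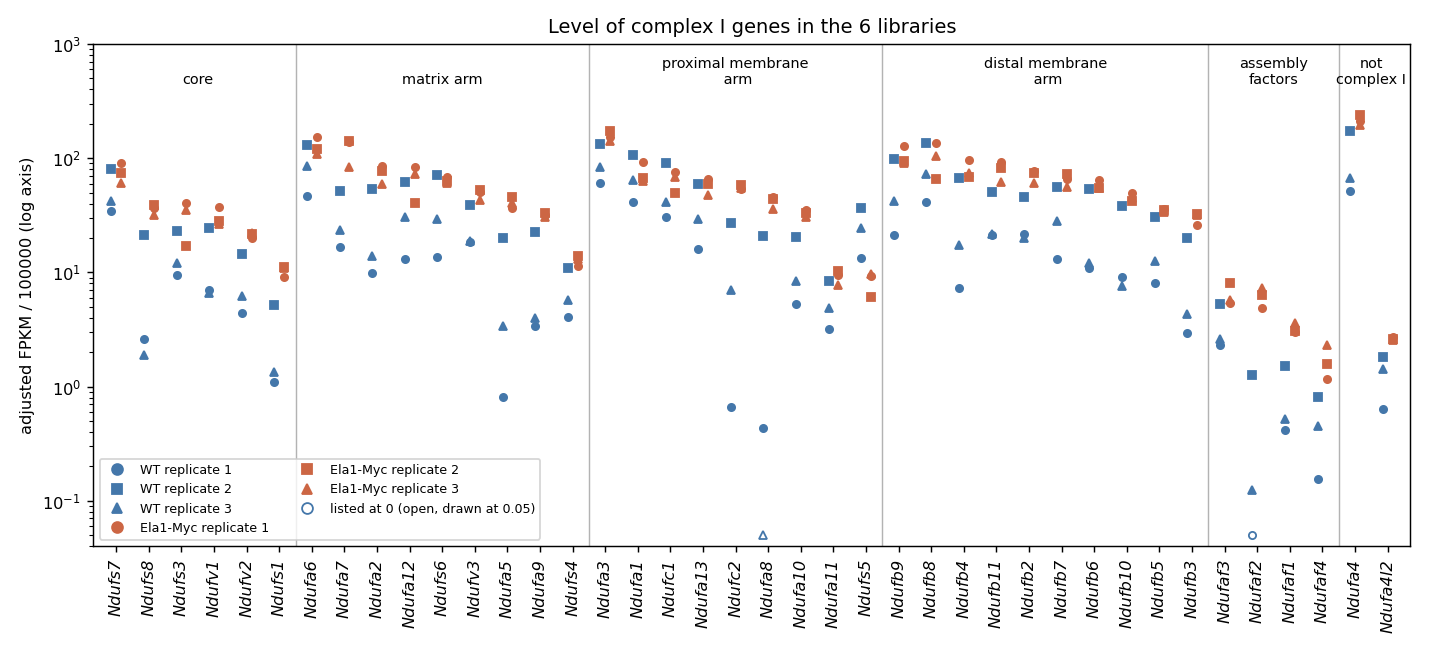
Level of 40 genes (adjusted FPKM / 100000, log axis) in the 6 libraries, ordered within each class by the Ela1-Myc mean; open symbols mark a listed 0. WT replicate 2 (blue square) sits near the Ela1-Myc libraries for most subunits, and Ndufs5 is the only gene whose 3 Ela1-Myc values lie below its 3 WT values on this scale.

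In the matrix arm 4 of 9 accessory subunits passed as higher on the deposited scale (Ndufa2, Ndufa5, Ndufa7 and Ndufa9) and none after scaling. Both counts lie below the shares of all tested genes that passed as higher, 70.2% on the deposited scale and 17.0% after scaling. Ndufa5, which sits on the ubiquinone-reducing module, was at 0.809, 20.0 and 3.39 across WT, against 36.5, 45.9 and 40.1 across Ela1-Myc. The listed value of WT replicate 1 was low for this gene, and WT replicate 2 stayed below every Ela1-Myc library. Its log2 difference was 2.92 (SE 0.76, adjusted p = 0.00423) on the deposited scale and 1.65 (SE 0.73, adjusted p = 0.139) after scaling. Ndufa9, which binds NADPH next to the ubiquinone site, was at 3.38, 22.4 and 3.96 across WT, against 31.8, 32.8 and 30.4 across Ela1-Myc (2.03, SE 0.68, adjusted p = 0.016; 0.64 after scaling). Ndufa7 was at 16.8, 51.8 and 23.5 across WT, against 139, 142 and 84.5 across Ela1-Myc (2.07, SE 0.75, adjusted p = 0.0243; 0.57 after scaling). The call of Ndufa9 was lost without WT replicate 1 and without Ela1-Myc replicate 1 or 3, and that of Ndufa7 without any library but WT replicate 2.

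At the other end of the matrix arm stood Ndufa6, Ndufv3 and Ndufs4, none of which passed on the deposited or the median-of-ratios scale. Ndufa6, a small subunit of the LYR-motif family, was among the most abundant, at 46.6, 131 and 85.3 across WT, against 154, 121 and 108 across Ela1-Myc (0.64, SE 0.78, adjusted p = 0.452; -0.88 after scaling, adjusted p = 0.141). Ndufs4, whose loss causes Leigh-like encephalopathy in mice, was at 4.04, 10.97 and 5.74 across WT, against 11.5, 13.8 and 13.0 across Ela1-Myc (0.89, SE 0.50, adjusted p = 0.121; -0.48 after scaling). Ndufv3 lay at 18.4 to 39.2 in WT and at 43.3 to 52.7 in Ela1-Myc (0.99, SE 0.67, adjusted p = 0.191; -0.50 after scaling). For Ndufa6 and Ndufs4 all scaled Ela1-Myc values lay below all scaled WT values, and for Ndufv3 they overlapped. The remaining 2 subunits of the arm, Ndufa12 and Ndufs6, overlapped between the groups on both scales.

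Among the 9 accessory subunits of the proximal membrane arm, Ndufa8, Ndufa10 and Ndufc2 passed as higher and Ndufs5 as lower on the deposited scale. Of all tested genes 70.2% passed as higher there and 0.239% as lower. Ndufc2, a membrane subunit that associates with Ndufc1, was at 0.659, 27.3 and 6.96 across WT, against 53.3, 58.6 and 54.7 across Ela1-Myc (2.97, SE 0.85, adjusted p = 0.00703; 1.69 after scaling, adjusted p = 0.186). Its neighbour in the enzyme, Ndufc1, was at 30.4, 91.2 and 40.9 across WT, against 75.2, 49.2 and 68.2 across Ela1-Myc (0.37, SE 0.75, adjusted p = 0.649; -1.13 after scaling, adjusted p = 0.0647). The listed values of the 2 partners thus differed: in WT replicate 1 Ndufc2 was at 0.659 and Ndufc1 at 30.4, and the groups of Ndufc1 overlapped. A low listed value is no evidence of near absence. Ndufa10, a subunit related to nucleoside kinases, was at 5.23, 20.5 and 8.35 across WT, against 35.1, 32.9 and 30.7 across Ela1-Myc (1.65, SE 0.63, adjusted p = 0.0301; 0.22 after scaling). Its call was lost without any library but WT replicate 2. Ndufa8, which lies on the intermembrane side, was at 0.432 and 21.0 for WT replicates 1 and 2, listed at 0 for WT replicate 3, and at 46.1, 44.2 and 36.1 across Ela1-Myc (3.76, SE 0.89, adjusted p = 0.00233, with the 0 taken as a value; 2.77 after scaling, adjusted p = 0.113).

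Ndufa1, a short membrane subunit on the X chromosome (GRCm38, X:37187589-37191238) that complex I needs to assemble, differed little on the deposited scale. It was at 41.2, 107 and 64.2 across WT, against 91.7, 66.8 and 63.6 across Ela1-Myc, so the groups overlapped and the log2 difference was 0.15 (SE 0.75, adjusted p = 0.857). After scaling it was at 103, 124 and 109 across WT, against 57.9, 44.1 and 30.8 across Ela1-Myc. All scaled Ela1-Myc values lay below all scaled WT values, by -1.36 (SE 0.38, adjusted p = 0.0425). That call was lost when any library but Ela1-Myc replicate 1 was left out, with adjusted p between 0.0711 and 0.127. Ndufa11 was at 3.20, 8.45 and 4.84 across WT, against 9.53, 10.2 and 7.75 across Ela1-Myc (0.72, SE 0.46, adjusted p = 0.166; -0.60 after scaling, adjusted p = 0.152).

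Ndufs5, a small accessory subunit on the intermembrane side of the membrane arm, was lower in Ela1-Myc on all scales tried. It was at 13.4, 36.3 and 24.3 across WT, against 9.26, 6.12 and 9.74 across Ela1-Myc. Every Ela1-Myc value lay below every WT value, including that of WT replicate 1, the library with the lowest subunit sum. On the deposited scale this was true of 1 of the 41 genes and of 0.534% of all tested genes, while 28 of the 41 and 75.3% of all tested genes lay entirely above WT. The log2 difference was -1.37 (SE 0.57, adjusted p = 0.0445) on the deposited scale, -2.77 (SE 0.28, adjusted p = 0.00158) after median-of-ratios scaling, -2.91 after quantile normalization and -2.57 with the enzymes left out. The deposited-scale call was lost without WT replicate 3 and without any of the Ela1-Myc libraries (adjusted p between 0.0797 and 0.181), while after median-of-ratios scaling it held with each library left out (adjusted p between 0.00179 and 0.0137). As a share of the summed subunits, Ndufs5 made up 2.56%, 2.06% and 3.04% in WT and 0.41%, 0.313% and 0.534% in Ela1-Myc.

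The Ndufs5 locus (GRCm38, 4:123712710-123718186) has a near-identical processed pseudogene, BC002163 (16:42955580-42956079), that the deposited tables list as a gene of its own. The sequences are shown because reads within the shared stretch that cover no differing base could come from either; how many reads that concerns was not tested. Over 319 aligned bases, out of the 321 coding bases of Ndufs5, they are 99.4% identical and differ by T81C and A105G, with the Ndufs5 base first, the position counted from 1 at the A of its start codon, and the pseudogene base last. The first 180 bases of both are given from 5′ to 3′ from the GENCODE transcripts of GRCm38, with the differing bases in capitals.
Ndufs5: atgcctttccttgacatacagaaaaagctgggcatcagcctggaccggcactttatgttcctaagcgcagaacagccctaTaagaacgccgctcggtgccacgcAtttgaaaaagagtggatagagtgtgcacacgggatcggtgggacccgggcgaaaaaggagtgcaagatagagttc
BC002163: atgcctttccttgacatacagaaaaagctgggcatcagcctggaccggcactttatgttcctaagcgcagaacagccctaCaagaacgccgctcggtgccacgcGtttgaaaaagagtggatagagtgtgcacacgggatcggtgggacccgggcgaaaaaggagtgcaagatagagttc

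The pseudogene's row did not pass on either scale, and the sign of its difference turned with the scaling. BC002163 was at 5.12, 13.9 and 6.75 across WT, against 15.9, 17.0 and 14.8 across Ela1-Myc (log2 difference 0.92, SE 0.53, adjusted p = 0.13), and after scaling it was -0.48 (adjusted p = 0.262). Of the 2 rows together, Ndufs5 held 72.3%, 72.3% and 78.2% in WT and 36.8%, 26.4% and 39.7% in Ela1-Myc. The division between the rows thus differed between the groups in every library, and on the deposited scale the sum of the rows did not pass: it was 18.5, 50.3 and 31.0 in WT and 25.2, 23.1 and 24.5 in Ela1-Myc (-0.33, SE 0.65, adjusted p = 0.646). With median-of-ratios scaling the sum was 46.3, 58.5 and 52.9 in WT and 15.9, 15.3 and 11.9 in Ela1-Myc (-1.81, SE 0.31, adjusted p = 0.00963). The sum was an alternative chosen after the values had been seen. FPKM is per length, and the longest GENCODE transcript of Ndufs5 has 680 bases, that of BC002163 319. The sum and the percentages of the 2 rows are therefore not counts of reads. They cannot show whether reads were divided between the rows. Both Ndufs5 and BC002163 are therefore uncertain as single genes, and whether the authors' counting split reads between them was not tested.

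**Figure D4:**
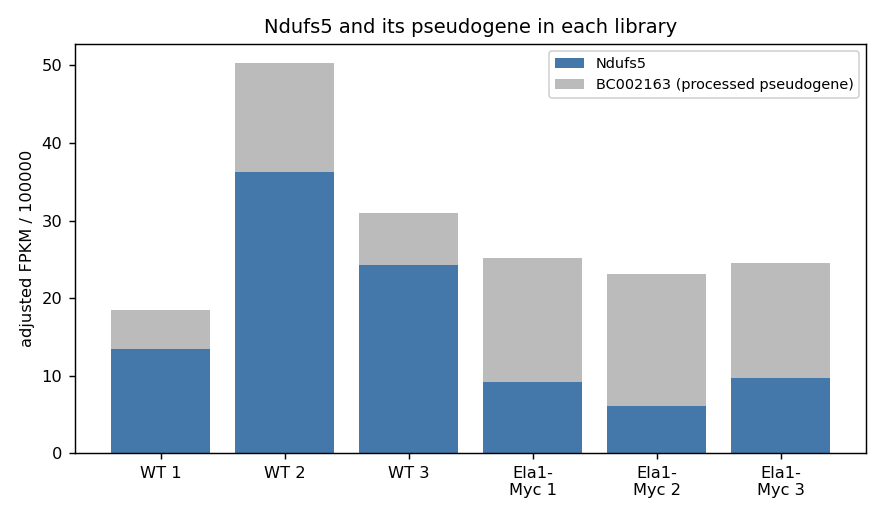
Bars give the level of Ndufs5 (blue) with that of its processed pseudogene BC002163 (grey) stacked on it, in adjusted FPKM / 100000, for each library. Ndufs5 is the larger part in WT (72.3% to 78.2%) and the smaller in Ela1-Myc (26.4% to 39.7%), while the stacked heights overlap.

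Stretches of at least 200 bases with at least 95% identity to a transcript of another gene, from a copy or an overlapping gene, were found for 11 of the 41 genes among the GENCODE transcripts. Apart from BC002163, the partners that the deposited tables list are Tssk6 for Ndufa13 and Mrpl47 for Ndufb5. The other 8 of these genes are Ndufa12, Ndufb3, Ndufb4, Ndufb6, Ndufb9, Ndufb11, Ndufs3 and Ndufs6, and their values are uncertain to the extent that reads were shared.

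The distal membrane arm, whose 10 accessory subunits found here surround the outer proton pumps, held 1 gene that passed on the deposited scale and none after scaling. Over all tested genes, 70.2% passed as higher on the deposited scale and 17.0% after scaling. That gene, Ndufb3, was at 2.96, 20.1 and 4.35 across WT, against 26.2, 32.3 and 31.5 across Ela1-Myc (2.01, SE 0.66, adjusted p = 0.0148; 0.63 after scaling, adjusted p = 0.355). Its call was lost without WT replicate 1 and without Ela1-Myc replicate 3. Ndufb4 and Ndufb10 lay just short of the threshold, with log2 differences of 1.87 (SE 0.82, adjusted p = 0.0524) and 1.63 (SE 0.71, adjusted p = 0.0533). Ndufb4 was at 7.26, 66.5 and 17.3 across WT, against 96.0, 67.8 and 74.5 across Ela1-Myc, so the lowest Ela1-Myc value exceeded WT replicate 2 by little. Ndufb10 was at 9.10, 38.1 and 7.56 across WT, against 49.8, 42.0 and 44.7 across Ela1-Myc. After scaling the differences of Ndufb4 and Ndufb10 were 0.40 and 0.17, with overlapping groups.

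Ndufb8 had the smallest difference of the distal arm on the deposited scale and the largest after scaling. It was at 41.0, 135 and 73.2 across WT, against 137, 65.1 and 105 across Ela1-Myc (0.40, SE 0.79, adjusted p = 0.648), and -1.12 (SE 0.42, adjusted p = 0.0923) after scaling, where the groups did not overlap. Ndufb7 and Ndufb9 overlapped between the groups on both scales, with log2 differences of 1.18 (adjusted p = 0.157) and 1.19 (adjusted p = 0.181) that became -0.31 and -0.32 after scaling. The median over the 10 genes was 1.37 on the deposited scale and -0.13 after scaling, and Ndufb2, Ndufb5, Ndufb6 and Ndufb11 lay between 1.20 and 1.52 and between -0.26 and 0.04.

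Relative to one another, the subunits kept to no single ratio between the groups. Every level was divided by the summed subunits of its library, which removes any factor that multiplies a whole library. In this measure 13 of the 35 subunits had all Ela1-Myc values above all WT values and 7 had them all below. Of all tested genes divided by the same sums, 39.1% lay entirely above and 8.03% entirely below. The higher ones included the core subunits Ndufs1, Ndufs8, Ndufv1 and Ndufv2 and the accessory subunits Ndufa2, Ndufa5, Ndufa7, Ndufa8, Ndufa9, Ndufa10, Ndufb3 and Ndufc2. The lower ones were Ndufs7, Ndufa1, Ndufa6, Ndufa13, Ndufb8, Ndufc1 and Ndufs5, of which 4 belong to the proximal membrane arm. Apart from Ndufs5, the lower ones were among the most abundant subunits in WT, each at 3.39% to 9.01% of the sum there. Ndufa7 went from 3.03% ± 0.153 in WT to 6.01% ± 1.32 in Ela1-Myc (SD, n = 3 each), and Ndufa1 from 7.33% ± 1.09 to 3.66% ± 0.355. Ndufs5 had the largest relative difference, from 2.56% ± 0.489 to 0.419% ± 0.111, a ratio of 0.164. The range of listed levels in WT was wide for several of the higher ones, since Ndufa5, Ndufa8, Ndufc2 and Ndufs8 were close to 0 in 1 or more WT libraries.

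**Figure D5:**
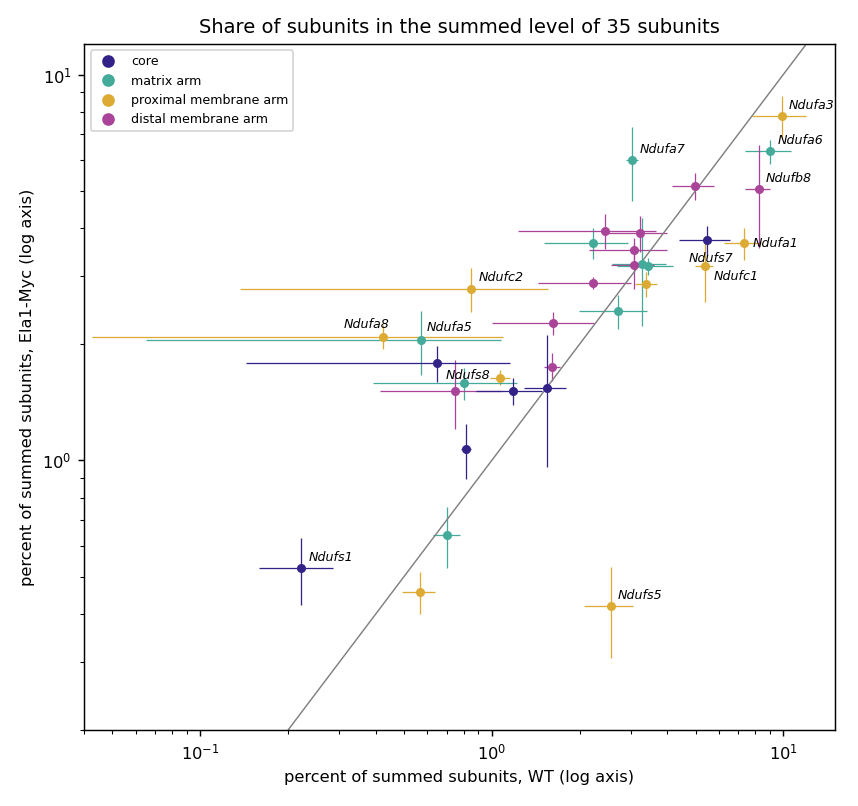
Share of 34 subunits in the summed subunits of a library, mean of 3 WT libraries against mean of 3 Ela1-Myc libraries, in percent on log axes, with SD as bars (shortened for Ndufa8, whose WT SD exceeds its mean) and the diagonal marking equal shares. Ndufs5 lies farthest below the diagonal (2.56% against 0.419%), while Ndufa8, Ndufa5 and Ndufc2 lie farthest above it with wide WT bars.

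Transcript length bore little relation to the differences of the subunits. Across the 35 subunits, Spearman's rho between the length of the longest GENCODE transcript and the log2 difference was 0.01 on the deposited scale and 0.05 after scaling, given as a description across genes that share their libraries. Over the 7830 tested genes with a length it was -0.20 and -0.09.

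All 4 assembly factors lay higher in every Ela1-Myc library than in any WT library on the deposited scale, at low levels, and 3 passed. Of all tested genes 75.3% lay entirely above WT and 70.2% passed as higher. The WT means of Ndufaf1, Ndufaf2 and Ndufaf4 (0.820, 0.466 and 0.473) were below the minimum mean of 1 for testing. These 3 were therefore tested only through their Ela1-Myc values, and a lower mean in Ela1-Myc was not possible. Ndufaf2, a paralogue of the subunit Ndufa12 that binds a late assembly intermediate (GRCm38, 13:108052589-108158625), was listed at 0 in WT replicate 1, was at 1.27 and 0.125 in WT replicates 2 and 3, and was at 4.85, 6.397 and 7.24 in Ela1-Myc. The lowest Ela1-Myc value was several times the highest WT value. The log2 difference was 2.37 (SE 0.35, adjusted p = 9.94e-05, with the 0 taken as a value) on the deposited scale, 1.66 (SE 0.35, adjusted p = 0.018) after median-of-ratios scaling, 1.04 after quantile normalization and 1.83 with the enzymes left out. It passed on the deposited scale with each library left out in turn, and after median-of-ratios scaling it did not pass without WT replicate 3 (adjusted p = 0.0597), Ela1-Myc replicate 2 (adjusted p = 0.0823) or Ela1-Myc replicate 3 (adjusted p = 0.0794). Of the 41 genes it was the only one entirely above WT after that scaling, as 28.9% of all tested genes were; 9 of the 41, and 17.2% of all tested genes, were entirely below.

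Ndufaf1, which works with Ecsit and Acad9 in building the membrane arm, was at 0.419, 1.52 and 0.523 across WT, against 3.01, 3.04 and 3.58 across Ela1-Myc. The groups stood apart (1.26, SE 0.30, adjusted p = 0.00239), and after scaling the difference was 0.39 (SE 0.19, adjusted p = 0.182). Ndufaf4 was at 0.156, 0.815 and 0.447 across WT, against 1.17, 1.58 and 2.33 across Ela1-Myc (0.87, SE 0.27, adjusted p = 0.0107; 0.22 after scaling). Its partner in early assembly of the ubiquinone module, Ndufaf3, was at 2.30, 5.33 and 2.62 across WT, against 5.39, 8.00 and 5.68 across Ela1-Myc, where the lowest Ela1-Myc value barely exceeded WT replicate 2. Ndufaf3 did not pass (0.78, SE 0.40, adjusted p = 0.0937), its scaled difference was -0.45 (SE 0.27, adjusted p = 0.247), and after quantile normalization it passed as lower (-0.73, adjusted p = 0.0459). At these low levels the pseudocount of 1 makes the log2 differences smaller than the ratios of the values.

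Set against the summed subunits, in a measure that needs no scaling between libraries, the 4 assembly factors made up a larger part in Ela1-Myc, which rested on Ndufaf2. Their summed level was 0.551%, 0.507% and 0.465% of the summed subunits in WT and 0.639%, 0.973% and 1.03% in Ela1-Myc. Every Ela1-Myc library lay above every WT library, though Ela1-Myc replicate 1 was much closer to WT than the other Ela1-Myc libraries. The means were 0.508% ± 0.0431 and 0.881% ± 0.212 (SD, n = 3 each). Without Ndufaf2, an alternative chosen after seeing the data, the share was 0.551%, 0.435% and 0.449% in WT and 0.424%, 0.645% and 0.635% in Ela1-Myc, and the groups overlapped. Of the single factors, Ndufaf1 and Ndufaf2 lay entirely above WT relative to the summed subunits, and Ndufaf3 and Ndufaf4 overlapped, while 39.1% of all tested genes lay entirely above in this measure. No p-value is given, since these genes were chosen with earlier results known.

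Assembly genes outside the Nduf names were taken from a textbook list. On the deposited scale 12 of its 14 tested members were higher and none lower, where 70.2% of all tested genes were higher and 0.239% lower. Members below the minimum mean of 1 in every WT library, such as Nubpl, Dmac2, Foxred1 and Tmem186, were tested only through their Ela1-Myc values. They could not have been lower. All 15 genes found from this list, the untested Ndufaf5 included, were also added up relative to the summed subunits. That share was 3.43%, 2.74% and 2.89% in WT and 3.87%, 4.38% and 4.69% in Ela1-Myc, with no overlap. Taken singly in this measure, 8 of the 14 tested members lay entirely above WT and 0 below. Of all tested genes 39.1% lay entirely above and 8.03% below. Nubpl, which delivers iron-sulfur clusters to complex I, was listed at 0 in WT replicate 1, at 0.615 and 0.369 in the other WT libraries and at 3.10, 2.94 and 3.37 in Ela1-Myc (1.66, SE 0.27, adjusted p = 0.000188; 1.01 after scaling, adjusted p = 0.0258). The gene listed as Atp5sl, now Dmac2, was at 0.0349, 0.748 and 0.236 across WT, against 1.95, 2.69 and 2.81 across Ela1-Myc (1.41, SE 0.27; 0.79 after scaling, adjusted p = 0.0487). These 2 were the members of the 14 that also passed after scaling, where 17.0% of all tested genes passed as higher. Acad9, Foxred1, Tmem186, Lyrm2, Tmem70, Timmdc1, Dmac1, Ndufaf6, Ndufaf7 and Ndufaf8 passed on the deposited scale by 0.72 to 1.59, while Ecsit (0.89, adjusted p = 0.129) and Tmem126b (0.73, adjusted p = 0.0532) did not; Ndufaf5 was below the minimum level for testing. Timmdc1 turned with the scaling: it was 0.72 (adjusted p = 0.0442) on the deposited scale, -0.26 after median-of-ratios scaling, with all Ela1-Myc values below all WT values, and called lower after quantile normalization (-0.66, adjusted p = 0.0453). The tables give Timmdc1, Dmac1, Ndufaf5, Ndufaf6, Ndufaf7 and Ndufaf8 under older symbols. Ndufab1, the mitochondrial acyl carrier protein and a subunit outside the name rule, was at 6.36, 16.0 and 9.75 across WT, against 25.8, 18.7 and 26.5 across Ela1-Myc (1.15, SE 0.58, adjusted p = 0.0862; -0.29 after scaling).

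Nuclear regulators of mitochondrial genes were higher on the deposited scale for 9 of the 10 tested, none lower, at low levels. Of all tested genes 70.2% were higher, and the regulators' median of 1.10 compares with 1.22 over all tested genes. Regulators below the minimum mean of 1 in every WT library, as Nrf1, Gabpa, Tfam and Twnk were, could be tested only through their Ela1-Myc values. For these a lower level was not possible, so the absence of lower calls is no result. Pprc1, a coactivator of the PGC-1 family, was at 0.225, 1.05 and 0.424 across WT, against 2.89, 2.80 and 4.15 across Ela1-Myc (1.47, SE 0.29; 0.67 after scaling, adjusted p = 0.0394). Twnk, the mitochondrial DNA helicase that the tables list as Peo1, was listed at 0 in WT replicate 1, at 0.442 and 0.291 in the other WT libraries and at 3.27, 2.02 and 2.88 in Ela1-Myc (1.58, SE 0.26; 0.97 after scaling, adjusted p = 0.024). These 2 of the 10 passed on both scales, where 17.0% of all tested genes passed as higher after median-of-ratios scaling. After quantile normalization neither they nor Nubpl and Dmac2 passed. Nrf1, Gabpa, Gabpb1, Esrra, Tfam, Tfb2m and Polrmt passed on the deposited scale by 0.83 to 1.16 and not after scaling, and Yy1 passed on neither (0.76, adjusted p = 0.0875; -0.40 after scaling). Ppargc1a and Ppargc1b were below the minimum level for testing, with no value above 0.338 in any library.

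Of the 2 genes that carry an Nduf name without being complex I subunits, 1 passed on the deposited scale and none after scaling. Among all tested genes 70.2% and 17.0% passed as higher on these scales. Ndufa4 was at 51.4, 172 and 67.4 across WT, against 212, 238 and 195 across Ela1-Myc (1.34, SE 0.80, adjusted p = 0.141; -0.19 after scaling). Ndufa4l2 was at 0.642, 1.81 and 1.44 across WT, against 2.73, 2.59 and 2.53 across Ela1-Myc (0.69, SE 0.29, adjusted p = 0.0483; -0.25 after scaling). For both, every deposited Ela1-Myc value exceeded every WT value, and they overlapped after scaling, and the call of Ndufa4l2 was lost without any library but WT replicate 2.

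Subunits of complexes II to V are given for comparison, together with Cycs, whose product is not a subunit of any of them. On the deposited scale 16 of 39 tested passed as higher and none as lower, with a median of 1.61, and 1 of 39 (Cycs, encoding cytochrome c) passed after scaling, with a median of 0.12. Both counts lie below the 70.2% and 17.0% of all tested genes that passed as higher. Cycs was listed at 0 in WT replicates 1 and 3, so its call takes these zeros as values. Their summed level was 1.88%, 2.30% and 1.61% of the values outside the digestive enzymes in WT and 2.05%, 2.13% and 2.07% in Ela1-Myc, again inside the WT range. A test of complex I against the other complexes was not made.

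Promoter sequences were read from the RefSeq table of GRCm38.p6 for 36 of the 41 genes, from 250 bases before to 50 bases after the start of transcription, and searched on both strands. The canonical E-box CACGTG, which MYC and MAX bind, was in 2 of the 36 (5.56%), those of Ndufa7 and Ndufv1, against 7.15% of 32851 promoters in the table and 10.8% of the 6318 tested genes with a promoter. Ndufa7 passed as higher on the deposited scale and Ndufv1 did not, and neither passed after scaling. The stretches that hold the E-box are shown from 5′ to 3′ on the gene's strand with the motif in capitals, 145 and 169 bases before the start; the Ndufa7 stretch is chr17:33824395-33824594 on the + strand and the Ndufv1 stretch chr19:4012806-4013005 on the - strand.
Ndufa7: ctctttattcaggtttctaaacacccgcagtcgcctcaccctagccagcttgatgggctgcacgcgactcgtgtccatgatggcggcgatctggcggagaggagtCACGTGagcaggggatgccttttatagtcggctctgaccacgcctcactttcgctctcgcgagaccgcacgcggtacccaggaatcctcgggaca
Ndufv1: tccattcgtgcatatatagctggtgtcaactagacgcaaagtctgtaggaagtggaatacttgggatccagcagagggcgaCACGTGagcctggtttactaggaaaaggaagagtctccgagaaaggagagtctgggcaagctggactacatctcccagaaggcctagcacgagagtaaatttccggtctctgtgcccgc

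Motifs of other regulators of mitochondrial genes were also counted. The YY1 motif AAGATGGCG was in 5 of the 36 promoters (13.9%), against 1.40% of all promoters and 3.53% of those of tested genes. The ETS core CCGGAAG, bound by GABPA, was in 5 (13.9%; 8.86% and 19.7%), and the palindromic core of the NRF1 motif in 2 (5.56%; 0.971% and 2.14%). All 5 YY1 matches lay 22 to 35 bases after the start. They are shown with up to 10 bases on each side because they sit at nearly the same place in each gene. The motif holds the letters ATG. Whether these are the gene's start codon was not tested, so nothing about YY1 is read from the shared place. The stretches, from 5′ to 3′ on the gene's strand, are chr6:126849097-126849125 for Ndufa9, chr3:51408915-51408943 for Ndufc1, chr13:114388045-114388069 for Ndufs4, chr13:73328433-73328459 for Ndufs6, chr10:80249463-80249491 for Ndufs7.
Ndufa9: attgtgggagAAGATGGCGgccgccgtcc
Ndufc1: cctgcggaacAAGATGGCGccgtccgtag
Ndufs4: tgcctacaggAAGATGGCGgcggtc
Ndufs6: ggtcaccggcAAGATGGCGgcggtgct
Ndufs7: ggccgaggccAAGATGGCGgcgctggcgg

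Of these 5 genes, Ndufa9 passed as higher on the deposited scale, and Ndufc1, Ndufs4, Ndufs6 and Ndufs7 did not pass on that scale or after median-of-ratios scaling. A match says only that these letters are present in the window.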

How the data were processed

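Gene-level FPKM of 3 WT and 3 Ela1-Myc pancreas libraries were used as deposited, 1 table per library; per the file headers the values are adjusted FPKM, by an adjustment that the sources used here do not describe. Per the submitters' processing notes, the tools were TopHat2 2.0.4, Cufflinks 2.0.2, CASAVA 1.8, FastQC 0.9.4, affy and Bowtie, listed without roles, and the build GRCm38 (mm10). Values were divided by 100000 and for each of 187 symbols of 23099 with several rows the one of highest mean was taken. The 8802 genes whose 6 libraries averaged 1 or more, all 41 complex I genes among them, were tested as log2(value + 1) with limma 3.58.1 (R 4.3.3, trended variance) and Benjamini-Hochberg adjustment over all of them, called at 0.05; the script was tested on simulated data. Fold changes are on this log2(value + 1) scale and understate those of low genes, and limma takes a listed 0 as a measured value. Genes with a WT mean under 1 could be tested only through their Ela1-Myc values, so counts of higher genes, also over all tested genes, lean that way. Depth is unknown, so no counting error is given.

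Alternatives were other pseudocounts and filters, median-of-ratios, quantile and enzyme-free scaling, array weights and leaving out each library. Sequences came from RefSeq (promoters, GRCm38.p6) and GENCODE (transcripts), with blastn 2.17.0, Biopython 1.88, pandas 2.3.3, Python 3.11.15 and matplotlib 3.10.9. The tables' start coordinates were shifted to count from 1. The members and gene lists were chosen with earlier results of these data known. The rule for named genes took all core subunits, assembly factors, Ndufa4 and Ndufa4l2. It also took the 3 largest and 3 smallest scaled differences of each accessory group among genes above 0 in all libraries. Genes called lower on any scale and the genes found of the other assembly and regulator lists were part of it too. Ndufa2, Ndufa8, the other subunits named and Cycs were chosen after their values were seen. The labels' protocol states RNA integrity above the values that the labels give for 5 of the 6 libraries. The values of 1 gene are not reported here, though it is part of the counts, sums and medians.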

Additional observations from a re-analysis of the deposited data

How the results depend on the processing

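The 17 complex I genes called became 9 with a pseudocount of 1 before division, 3 after median-of-ratios scaling, 9 after quantile normalization, 3 with the digestive enzymes left out, 2 after median-of-ratios scaling of genes above 0 in all libraries and 37 with array weights; with each library left out, on both scales, the count lay between 1 and 38. The 13 subunits called became 8, 2, 7, 2, 2 and 31 in that order, and 1 to 32 with a library left out. No count over all tested genes is given for array weights, so the 37 and 31 are not read as particular to complex I. The 3 assembly factors called became 2 after quantile normalization, 1 higher and 1 lower (Ndufaf3), and 1, 1, 1 and 0 with the pseudocount before division, median-of-ratios scaling, the enzymes left out, and scaled genes above 0 in all libraries, and 0 to 4 with a library left out; at a minimum mean of 5 none could be tested. Of all genes, 6203 were called, against 3375 with the pseudocount before division, 1750 at a minimum mean of 5, 2118 after median-of-ratios scaling, 2754 after quantile normalization, 2087 without the enzymes, 1328 for scaled genes above 0 in all libraries, and 570 to 7453 with a library left out. Over all genes instead of those outside the enzymes, the subunits' share was 0.0787% in WT and 0.253% in Ela1-Myc; with only subunits above 0 in all libraries it was 0.772% of the values outside the enzymes in Ela1-Myc. The cause was not tested, apart from the fewer genes or samples that an alternative holds.

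Directions turned with the scaling, and the values below are only of genes taken by the rule for named genes. Ndufa3, Ndufa12, Ndufa13, Ndufs6, Ndufb2, Ndufb5 and Ndufb11, outside that rule, also turned from positive to negative after median-of-ratios scaling. After median-of-ratios scaling, with all tested genes or only those above 0 in all libraries, the log2 differences were Ndufa1 -1.36, Ndufa11 -0.60, Ndufa4 -0.19, Ndufa4l2 -0.25, Ndufa6 -0.88, Ndufaf3 -0.45, Ndufb7 -0.31, Ndufb8 -1.12, Ndufb9 -0.32, Ndufc1 -1.13, Ndufs3 -0.43, Ndufs4 -0.48, Ndufs7 -0.91, Ndufv1 -0.0068, Ndufv2 -0.011 and Ndufv3 -0.50. After quantile normalization they were Ndufa1 -1.42, Ndufa11 -0.84, Ndufa4 -0.24, Ndufa4l2 -0.70, Ndufa6 -0.92, Ndufaf1 -0.041, Ndufaf3 -0.73, Ndufaf4 -0.43, Ndufb7 -0.39, Ndufb8 -1.19, Ndufb9 -0.39, Ndufc1 -1.20, Ndufs3 -0.60, Ndufs4 -0.68, Ndufs7 -1.004, Ndufv1 -0.18, Ndufv2 -0.19 and Ndufv3 -0.64. Without the enzymes they were Ndufa1 -1.14, Ndufa11 -0.41, Ndufa4l2 -0.11, Ndufa6 -0.66, Ndufaf3 -0.27, Ndufb7 -0.092, Ndufb8 -0.90, Ndufb9 -0.10, Ndufc1 -0.91, Ndufs3 -0.22, Ndufs4 -0.28, Ndufs7 -0.69 and Ndufv3 -0.28. With each library left out, from the lowest scaled to the highest deposited value, Ndufa1 lay between -1.55 and 0.50, Ndufa10 between -0.0053 and 2.15, Ndufa11 between -0.73 and 1.03, Ndufa4 between -0.40 and 1.85, Ndufa4l2 between -0.44 and 0.85, Ndufa6 between -1.07 and 0.99, Ndufaf3 between -0.65 and 1.07, Ndufb10 between -0.30 and 2.32, Ndufb4 between -0.12 and 2.69, Ndufb7 between -0.63 and 1.68, Ndufb8 between -1.38 and 0.83, Ndufb9 between -0.64 and 1.75, Ndufc1 between -1.31 and 0.82, Ndufs3 between -0.68 and 1.39, Ndufs4 between -0.60 and 1.23, Ndufs7 between -1.07 and 0.95, Ndufv1 between -0.37 and 1.99, Ndufv2 between -0.17 and 1.83 and Ndufv3 between -0.72 and 1.33. No paired analysis was possible because the labels give no replicate numbers; the numbers 1 to 3 used here follow the order of deposit, and nothing ties them into pairs.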
